A study of Mus musculus with 18 samples.

Results

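DNA replication genes were followed across all 9 groups of arrays of an Ezh2-conditional mouse fibroblast line. The set was a list of 39 genes that build, load or supply the replication machinery or rebuild chromatin behind the fork. Of these, 36 had a probe set annotated to them alone and were measured, among 18820 genes with such a probe set. Gins2, Rfc4 and Tyms had only probe sets shared with other genes and have no values here. The list goes by function, not by array values, but it was chosen with earlier results of these data known. It was divided into 6 role groups: licensing, helicase, polymerases, clamp and lagging strand, nucleotide supply and chromatin copying.

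Total RNA of clone C2 was hybridized to 18 Affymetrix Mouse Gene ST arrays, 2 per group. C2 is 1 clone of Ezh2 flox/Δ;ROSA26-CreERT2 embryonic fibroblasts immortalized with a c-Myc retrovirus, so every group, controls included, derives from cells with the Cre fusion, c-Myc and 1 deleted Ezh2 allele, and the remaining allele is removed by tamoxifen (4-hydroxytamoxifen in the study's methods). The time course held 8 arrays: cells given vehicle (ethanol), and cells 5, 18 and 32 days after tamoxifen. No vehicle cells of each later day were among these arrays, so time in culture, tamoxifen and loss of Ezh2 cannot be told apart. The rescue experiment held 10 arrays: Ezh2 null cells, cells that received a Flag-Ezh1 (Ezh1 pre-rescue) or Flag-Ezh2 (Ezh2 pre-rescue) retrovirus before endogenous Ezh2 was deleted, cells that received Flag-Ezh2 after deletion (Ezh2 post-rescue), and control cells, labelled Ezh2 WT. The labels give no days of treatment for the rescue experiment. The methods describe no empty retrovirus for control or Ezh2 null cells. Infection, hygromycin selection and the supplied enzyme therefore cannot be told apart in the rescue cells. Its replicates 1 and 2 differ by a batch according to the methods. Ezh2 is the catalytic subunit of PRC2, which places the repressive mark H3K27me3, and Ezh1 is its less active paralog.

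Replication origins are licensed in G1 when the origin recognition complex, Cdc6 and Cdt1 load the Mcm helicase onto DNA, and geminin (Gmnn) blocks Cdt1 once S phase has begun. Cdc45 and the GINS complex then switch the helicase on, primase and the polymerases copy the strands, and the PCNA clamp, Fen1 and Lig1 finish the lagging strand. Most of these genes are transcribed at the G1/S transition under E2F factors. On bulk arrays, more cells in S phase and more RNA of these genes per cell cannot be told apart.

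The E2F recognition string was also looked for in the promoters, which does not separate more cells in S phase from more RNA per cell. RefSeq windows (GRCm38.p6) that run from 250 bases before to 50 after a transcript start were given for 32 of the 39 listed genes, and Gmnn, Mcm4, Gins1, Gins2, Gins4, Prim2 and Pole had none. One of TTTCCCGC, TTTGGCGC, TTTCGCGC or TTTGCCGC, on either strand, lay in a window of 15 of the 32 genes (46.9%), against 704 of all 27025 genes (2.6%). The string was found in 9 of 38 other replication genes (23.7%) and in 1 of 26 mitosis genes (3.85%). A CCAAT box, 4 bases of which (CCAA) also occur in the E2F string GCGCCAAA, lay in 62.5% of the listed genes, 76.9% of mitosis genes and 41.1% of all genes. The strings TTTGAA and TTCGAA, the core of the CHR element of late cell cycle genes, stood in 21.9% of the listed genes, against 80.8% of mitosis genes and 21.7% of all genes. A match is a description of letters and not a bound site. An E2F string before the start was also found in Gins3, Mcm6, Mcm7 and Rfc3, which the rule for values on every array did not choose. The 6 examples are shown because they carry it before the start and belong to the genes chosen by that rule. Each is 30 bases, 5′ to 3′ on the strand of the gene, with the E2F strings in capitals (in Mcm5, 2 strings overlap):
Orc1, chr4:108579416-108579445, plus strand: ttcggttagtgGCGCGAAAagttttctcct
Cdc6, chr11:98908002-98908031, plus strand: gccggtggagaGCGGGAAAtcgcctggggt
Mcm5, chr8:75109347-75109376, plus strand: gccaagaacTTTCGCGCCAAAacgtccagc
Pola1, chrX:93632275-93632304, minus strand: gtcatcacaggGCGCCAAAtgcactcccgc
Uhrf1, chr17:56304117-56304146, plus strand: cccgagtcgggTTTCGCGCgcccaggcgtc
Dnmt1, chr9:20952824-20952853, minus strand: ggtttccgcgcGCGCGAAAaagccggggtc
The string began 27 bases before the annotated start in Orc1, 138 in Cdc6 and Pola1, 153 in Mcm5, 185 in Uhrf1 and 219 in Dnmt1. Uhrf1 has 2 annotated windows and Dnmt1 has 3, and the string stood before the start in 1 of them in each gene. In the orientation printed, Cdc6 reads GCGGGAAA, Orc1 and Dnmt1 read GCGCGAAA, Pola1 reads GCGCCAAA, and Mcm5 holds both TTTCGCGC and GCGCCAAA.

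The deposited values are log2 signals, normalized separately in the 2 experiments, and levels are compared only within one. The median of all probe sets was 4.98 to 5.08 on the time course arrays and 6.16 to 6.27 on the rescue arrays, and replicate arrays correlated at 0.994 to 0.999 across genes. The replication genes were well expressed, with the median member at the 73.2nd to 90.5th percentile of genes on the time course arrays. The median of the fibroblast markers was 9.14 to 9.61 on the time course arrays. Vim, the brightest of them, read 12.45 to 12.70 and Thy1, the dimmest, 3.85 to 4.23 on these arrays. The median of the epithelial, blood and endothelial lists stayed between 3.25 and 4.30 there. The median of the pluripotency list was 4.05 to 4.52, but its member Sox2 read 8.80 to 9.57 and Nanog, the next highest, 4.71 to 5.30. The Ezh2 probe set itself read 9.73 and 9.81 at day 32 and 9.37 and 9.43 with vehicle. Whether its probes lie in the deleted part is not given in the sources used here, and it therefore does not check the labels.

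At day 5, no replication gene was higher and 10 of 36 were lower than with vehicle, where 11.0% of all genes were higher and 5.72% lower (limma, Benjamini-Hochberg adjusted p under 0.05, the threshold used throughout). None was higher by 2-fold or more, against 0.967% of all genes. The median member changed by -0.09 on the log2 scale and the median of all genes by -0.01. The fall lay mostly in nucleotide supply, lagging strand and chromatin copying genes. Before adjustment, 3 members were higher and 13 lower at p under 0.05, against 17.5% of all genes higher and 11.9% lower.

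All 3 measured genes of nucleotide supply fell. Rrm2, the regulated subunit of ribonucleotide reductase, read 8.92 and 9.13 at day 5, against 9.63 and 9.76 with vehicle, a log2 change of -0.67 ± 0.09 (standard error, adjusted p = 0.0011 by limma). Tk1, the thymidine kinase of the salvage pathway, read 8.05 and 8.23 at day 5, against 8.68 and 8.82 with vehicle (-0.61 ± 0.09, adjusted p = 0.0019). In both genes the day 5 arrays lay clearly below the vehicle arrays, with a gap wider than that between replicates. A second, dimmer Tk1 probe set (8.06 with vehicle) changed by -0.77. Rrm1, the large subunit, fell by 0.41 (adjusted p = 0.0035).

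In chromatin copying, Uhrf1, which recruits the maintenance methyltransferase to newly copied DNA, read 7.80 and 7.82 at day 5, against 8.25 and 8.27 with vehicle (-0.46 ± 0.07, adjusted p = 0.0020). Dnmt1, that methyltransferase, read 9.25 and 9.27 at day 5, against 9.47 and 9.54 with vehicle (-0.25 ± 0.07, adjusted p = 0.049). Its call was marginal and was lost with replicate number as a block (adjusted p = 0.071) and when any 1 time course array was left out (0.067 to 0.16). The subunits of chromatin assembly factor 1 did not pass the test, with changes of -0.07 for Chaf1a and 0.03 for Chaf1b.

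On the lagging strand, the ligase Lig1 read 7.23 and 7.37 at day 5, against 7.74 and 7.75 with vehicle (-0.44 ± 0.09, adjusted p = 0.0073; 0.060 without day 5 replicate 1). The flap nuclease Fen1 read 6.06 and 6.05 at day 5, against 6.48 and 6.45 with vehicle (-0.41 ± 0.12, adjusted p = 0.040). Both genes separated the groups without overlap. At day 5, 19 members lay wholly below vehicle (26.1% of all genes) and 7 wholly above (28.5%). A second, dimmer Fen1 probe set changed by -0.14, and with the mean of both the change was -0.27 (adjusted p = 0.084). Pcna, the clamp, read 10.49 and 10.50 at day 5, against 10.58 and 10.57 with vehicle, and its change of -0.08 did not pass.

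Of 5 licensing genes, 1 was lower at day 5 and none higher. Gmnn read 3.67 and 3.71 at day 5, against 4.15 and 4.05 with vehicle (-0.41 ± 0.07, adjusted p = 0.0045). On these 4 arrays its level was under the median of all probe sets, a second Gmnn probe set was dimmer still (3.06 with vehicle) and changed by 0.03, and with the mean of both the change was -0.19 (adjusted p = 0.12). Cdt1 read 8.58 and 8.39 at day 5, against 7.95 and 8.26 with vehicle, and its change of 0.38 ± 0.12 did not pass (adjusted p = 0.059). Cdc6 read 6.79 and 6.71 at day 5, against 7.01 and 6.77 with vehicle, with overlapping groups and a change of -0.14.

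Among the helicase genes, Gins1, a GINS subunit, was the only one of 11 called at day 5, with 6.48 and 6.60 at day 5 and 6.75 and 6.90 with vehicle (-0.29 ± 0.09, adjusted p = 0.049). That call was lost without vehicle replicate 2 (adjusted p = 0.18) and without every other time course array but vehicle replicate 1 (0.062 to 0.23). The Mcm subunits that unwind the DNA stayed within 0.15 of vehicle, Mcm2 with 8.94 and 9.04 at day 5 and 8.78 and 8.91 with vehicle (0.15 ± 0.08, adjusted p = 0.26) and Mcm5 with 9.36 and 9.35 at day 5 and 9.34 and 9.50 with vehicle. Of 7 polymerase and primase genes, Pole2, the second subunit of polymerase epsilon, was called, with 7.81 and 7.70 at day 5 and 8.07 and 8.18 with vehicle (-0.38 ± 0.08, adjusted p = 0.012). It was lost without vehicle replicate 2 (0.054) or day 5 replicate 2 (0.083). Pola1, the catalytic subunit of polymerase alpha, read 8.01 and 7.86 at day 5, against 7.81 and 7.99 with vehicle.

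The count of 10 fell to 6 without vehicle replicate 2, without day 5 replicate 1 or without day 5 replicate 2, and was 18 when each array was centred on its median. That centring moved the median of all genes at day 5 to -0.15 and the median member to -0.24.

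By day 18 the whole set had turned upward. All 36 measured replication genes were higher than with vehicle, against 15.2% of all genes, with changes between 0.57 and 1.52 and a median of 0.88 (all genes -0.02). A rise of at least 2-fold was found in 12 members and in 2.10% of all genes. At day 32 all 36 were again higher, against 18.4% of all genes, with changes between 0.56 and 1.60 and a median of 1.03 (all genes -0.02), and 19 of them rose at least 2-fold, against 2.57% of all genes. Both counts of 36 were the same under each alternative tried and without any single array. On each of the 36 genes, both day 18 arrays and both day 32 arrays read above both vehicle arrays, which held for 29.8% of all genes at day 18 and 31.3% at day 32.

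**Figure D1:**
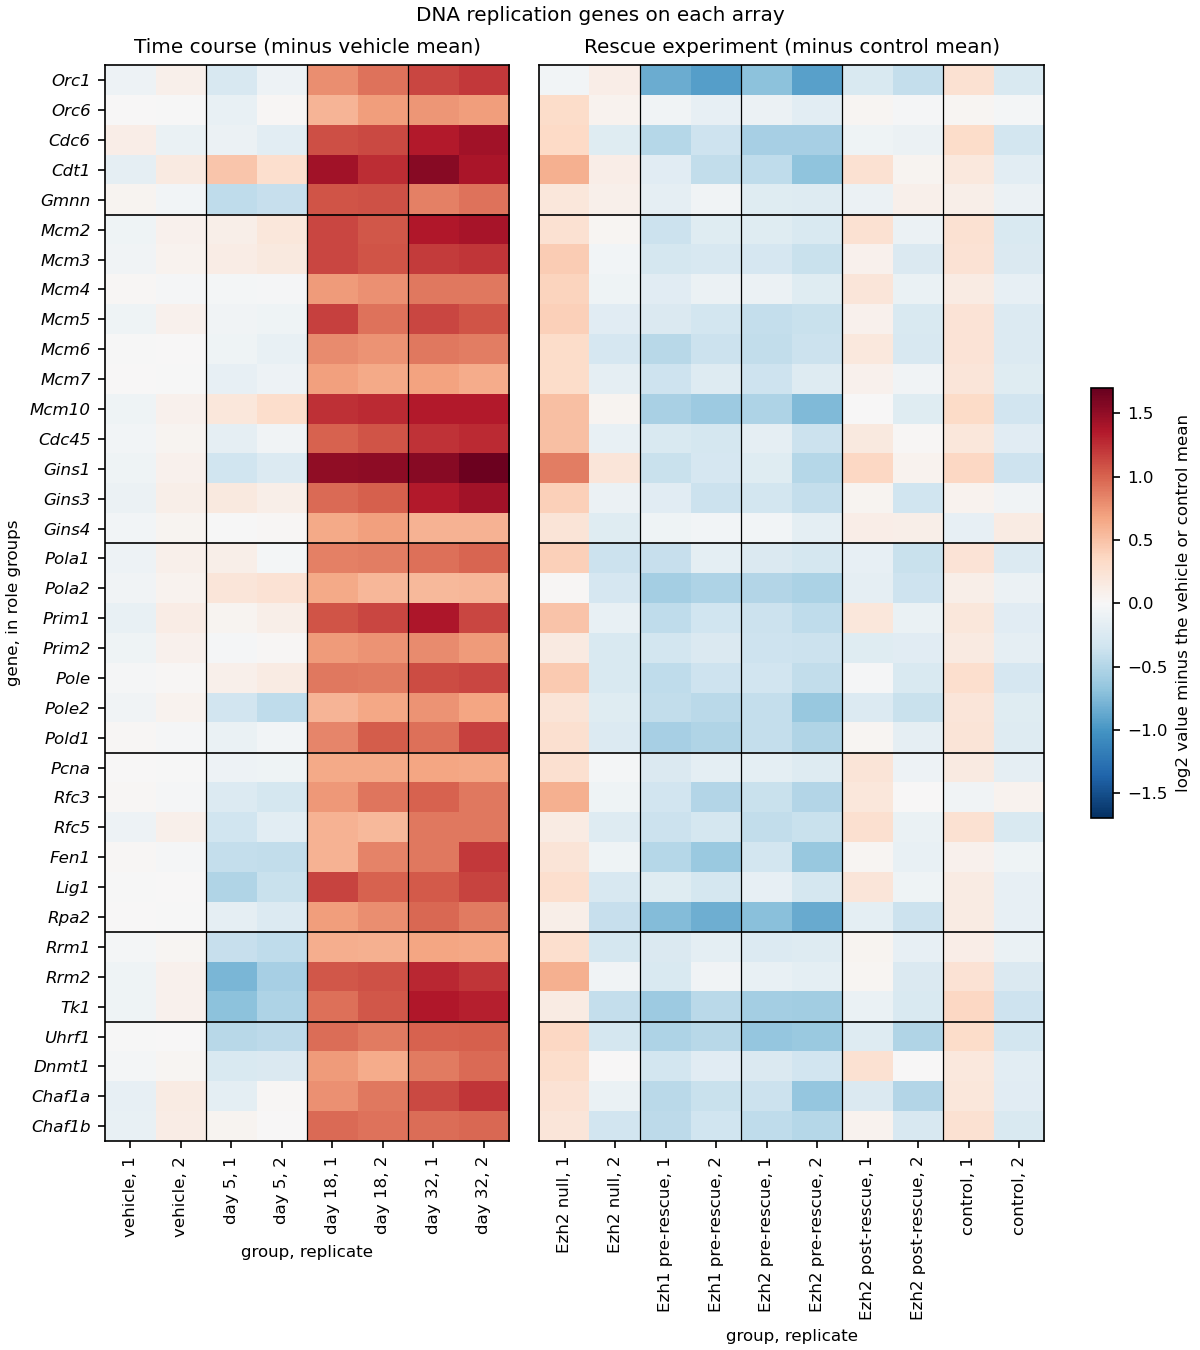
Log2 value of each measured replication gene (rows, in role groups) on each array (columns, group and replicate), minus the mean of the vehicle arrays in the time course or of the control arrays in the rescue experiment. The day 18 and day 32 columns are above vehicle in all 36 rows, and the pre-rescue columns lie below the control mean in most rows.

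The helicase group held the gene with the largest rise. Gins1 (chr2:150909556-150931280 in GRCm38.p6) read 6.75 and 6.90 with vehicle, 6.48 and 6.60 at day 5, 8.34 and 8.35 at day 18, then 8.37 and 8.49 at day 32. The fall at day 5 was followed by a level far above vehicle on all 4 late arrays, with a change of 1.60 ± 0.09 at day 32 (3.04-fold, adjusted p = 1.3e-06). Mcm2 read 9.98 and 9.91 at day 18 and 10.20 and 10.24 at day 32, a rise of 1.38 ± 0.08 over vehicle at day 32 (2.6-fold, adjusted p = 2.2e-06). Mcm5 read 10.59 and 10.34 at day 18 and 10.55 and 10.49 at day 32 (1.1 ± 0.10, adjusted p = 2.4e-05). The smallest rises of this group at day 32 were those of Gins4 (0.59) and Mcm7 (0.66). Mcm10, which helps to load polymerase alpha, read 7.73 and 7.87 with vehicle, 8.0 and 8.09 at day 5, 9.04 and 9.07 at day 18, then 9.15 on both day 32 arrays (1.35 ± 0.08, adjusted p = 2.1e-06).

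Licensing factors rose by 0.73 to 1.46 at day 32, with a median of 1.17. Cdt1 (chr8:122568015-122573130) read 9.53 and 9.36 at day 18 and 9.64 and 9.49 at day 32, a change of 1.46 ± 0.12 at day 32 (2.76-fold, adjusted p = 1.6e-05). Cdc6 read 7.99 and 8.01 at day 18, then 8.24 and 8.32 at day 32 (1.39 ± 0.09, adjusted p = 4.5e-06). Orc1, the origin recognition subunit whose level varies over the cell cycle, read 6.66 and 6.82 with vehicle, 6.47 and 6.66 at day 5, 7.53 and 7.66 at day 18, then 7.88 and 7.94 at day 32 (1.17 ± 0.10, adjusted p = 1.6e-05). Gmnn, the inhibitor of Cdt1, rose with its target, to 5.17 and 5.19 at day 18 and 4.96 and 5.02 at day 32 (0.89 ± 0.07, adjusted p = 1.6e-05). Its second, dimmer probe set changed by 0.11 at day 18 and 0.16 at day 32.

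Polymerase and primase genes rose by 0.56 to 1.26 at day 32, with a median of 0.96. Prim1, the catalytic subunit of primase, read 8.12 and 8.37 with vehicle, 8.30 and 8.35 at day 5, 9.32 and 9.38 at day 18, then 9.62 and 9.39 at day 32 (1.26 ± 0.10, adjusted p = 1.8e-05). Pola1 read 8.76 and 8.78 at day 18 and 8.84 and 8.89 at day 32 (0.96 ± 0.09, adjusted p = 2.9e-05). Pola2, its accessory subunit, had the smallest change of all 36, with 9.66 and 9.68 at day 32 and 9.05 and 9.17 with vehicle (0.56 ± 0.08, adjusted p = 0.00037). Pole2, which had been below vehicle at day 5, read 8.89 and 8.80 at day 32 (0.71 ± 0.08, adjusted p = 0.00012).

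In the clamp and lagging strand group, Pcna read 11.22 on both day 18 arrays and 11.25 and 11.24 at day 32, a change of 0.67 ± 0.07 at day 32 (adjusted p = 5.9e-05). Its second probe set gave 0.68. Lig1 read 8.89 and 8.74 at day 18 and 8.78 and 8.90 at day 32 (1.09 ± 0.09, adjusted p = 1.3e-05), and Rpa2, a subunit of the protein that coats single-stranded DNA, read 9.02 and 8.93 at day 32, against 8.04 on both vehicle arrays (0.93 ± 0.08, adjusted p = 1.5e-05). Fen1 rose by 1.05 on the brighter probe set, and its second, dimmer one gave 0.30.

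Nucleotide supply and chromatin copying genes that had read below vehicle at day 5 read above it later. Rrm2 (chr12:24708254-24714146) read 10.75 and 10.78 at day 18 and 10.97 and 10.91 at day 32, and Tk1 read 9.68 and 9.81 at day 18 and 10.11 and 10.07 at day 32. Against vehicle the day 32 changes were 1.25 ± 0.09 for Rrm2 (adjusted p = 7.8e-06) and 1.34 ± 0.09 for Tk1 (adjusted p = 5.7e-06). The second, dimmer Tk1 probe set gave 0.96. Uhrf1 read 9.26 and 9.28 at day 32 (1.01 ± 0.07, adjusted p = 5.7e-06), Dnmt1 10.39 and 10.47 (0.92 ± 0.07, adjusted p = 1.5e-05) and Chaf1a 8.32 and 8.40, against 7.06 and 7.33 with vehicle (1.17 ± 0.11, adjusted p = 3.4e-05). Within chromatin copying the 4 changes lay close together, between 0.92 and 1.17.

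**Figure D2:**
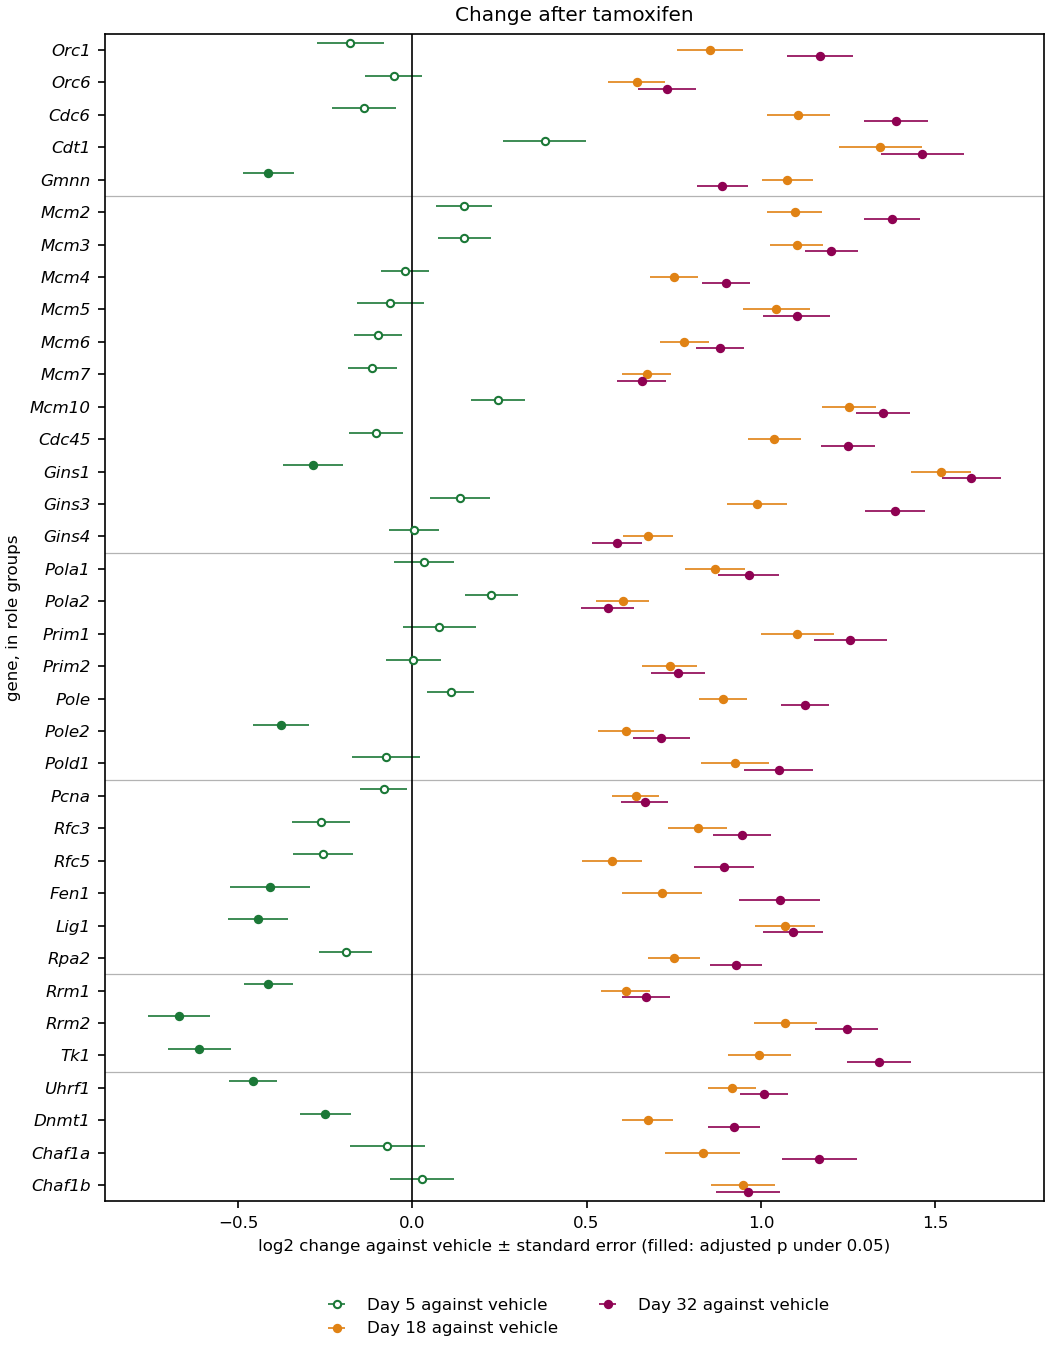
Log2 change of each replication gene at day 5, day 18 and day 32 against vehicle (horizontal axis, limma estimate ± standard error), genes in role groups on the vertical axis, filled where the adjusted p was under 0.05. Day 5 changes lie between -0.67 and 0.38, and all day 18 and day 32 changes lie between 0.56 and 1.60.

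The step fell between day 5 and day 18. All 36 genes were higher at day 18 than at day 5, against 15.6% of all genes, with a median of 0.96 and the largest changes in Gins1 (1.8), Rrm2 (1.74), Tk1 (1.61), Lig1 (1.51) and Gmnn (1.49). Between day 18 and day 32 only Gins3, another GINS subunit, was higher (0.40 ± 0.09, adjusted p = 0.036), against 1.40% of all genes, and none was lower, against 2.75% of all genes. Of the changes 32 of 36 were positive, and before adjustment 12 members were higher and 1 lower at p under 0.05, against 8.54% of all genes higher and 10.3% lower. The call of Gins3 was lost without any one of the day 5, day 18 or day 32 arrays. Gins3 read 8.12 and 8.20 at day 32, against 7.74 and 7.79 at day 18.

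Other genes of the cell cycle were set beside the replication genes. Over all genes, 11.0% were higher and 5.72% lower at day 5, and 18.4% were higher and 14.2% lower at day 32. Of 44 further replication genes, 4 were higher and 7 lower at day 5 and 37 higher and 1 lower at day 32, with a median of 0.79. Cdc7, the kinase that fires origins, changed by 1.59 at day 32, Atad5, which unloads PCNA, by 1.48, and the fork protection factors Timeless and Tipin by 1.35 and 1.30. Pold4, the small subunit of polymerase delta, was the one that fell (-0.70, adjusted p = 0.0013). At day 5 Rpa3 (-0.57), Pold2 (-0.47) and Dut (-0.49), which removes dUTP, fell.

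Of 27 measured mitosis genes, 19 were lower at day 5, with a median of -0.50, and all 27 were higher at day 32, with a median of 0.88. Bub1b, a spindle checkpoint kinase, changed by -0.75 at day 5, and Birc5, a subunit of the chromosomal passenger complex, by -0.64 at day 5 and 1.1 at day 32. Of 28 E2F, Rb and cyclin genes, 9 were higher and 5 lower at day 5 and 21 higher and 2 lower at day 32. Cdk6, a G1 kinase, changed by 2.13 at day 32, its partner Ccnd2 by 1.22, the E2F repressor E2f7 by 1.27 and Mybl2 by 1.40, whereas Rbl2 (-0.56) and Ccnd1 (-0.39) fell. Of 8 inhibitors of the cyclin-dependent kinases, 1 was higher and 2 lower at day 5 and 4 higher and 1 lower at day 32. Among them, Cdkn1a was higher at day 5 (1.01) and at day 32 (1.1), and Cdkn2b fell by 1.39 at day 32. Of 13 genes used as steady controls, 2 were higher at day 32, close to the share of all genes, with a median of 0.10. At day 5, 1 of them was lower, with a median of -0.07. They were not flat between day 5 and day 18, where 5 were higher, against 15.6% of all genes, with a median of 0.18.

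**Figure D3:**
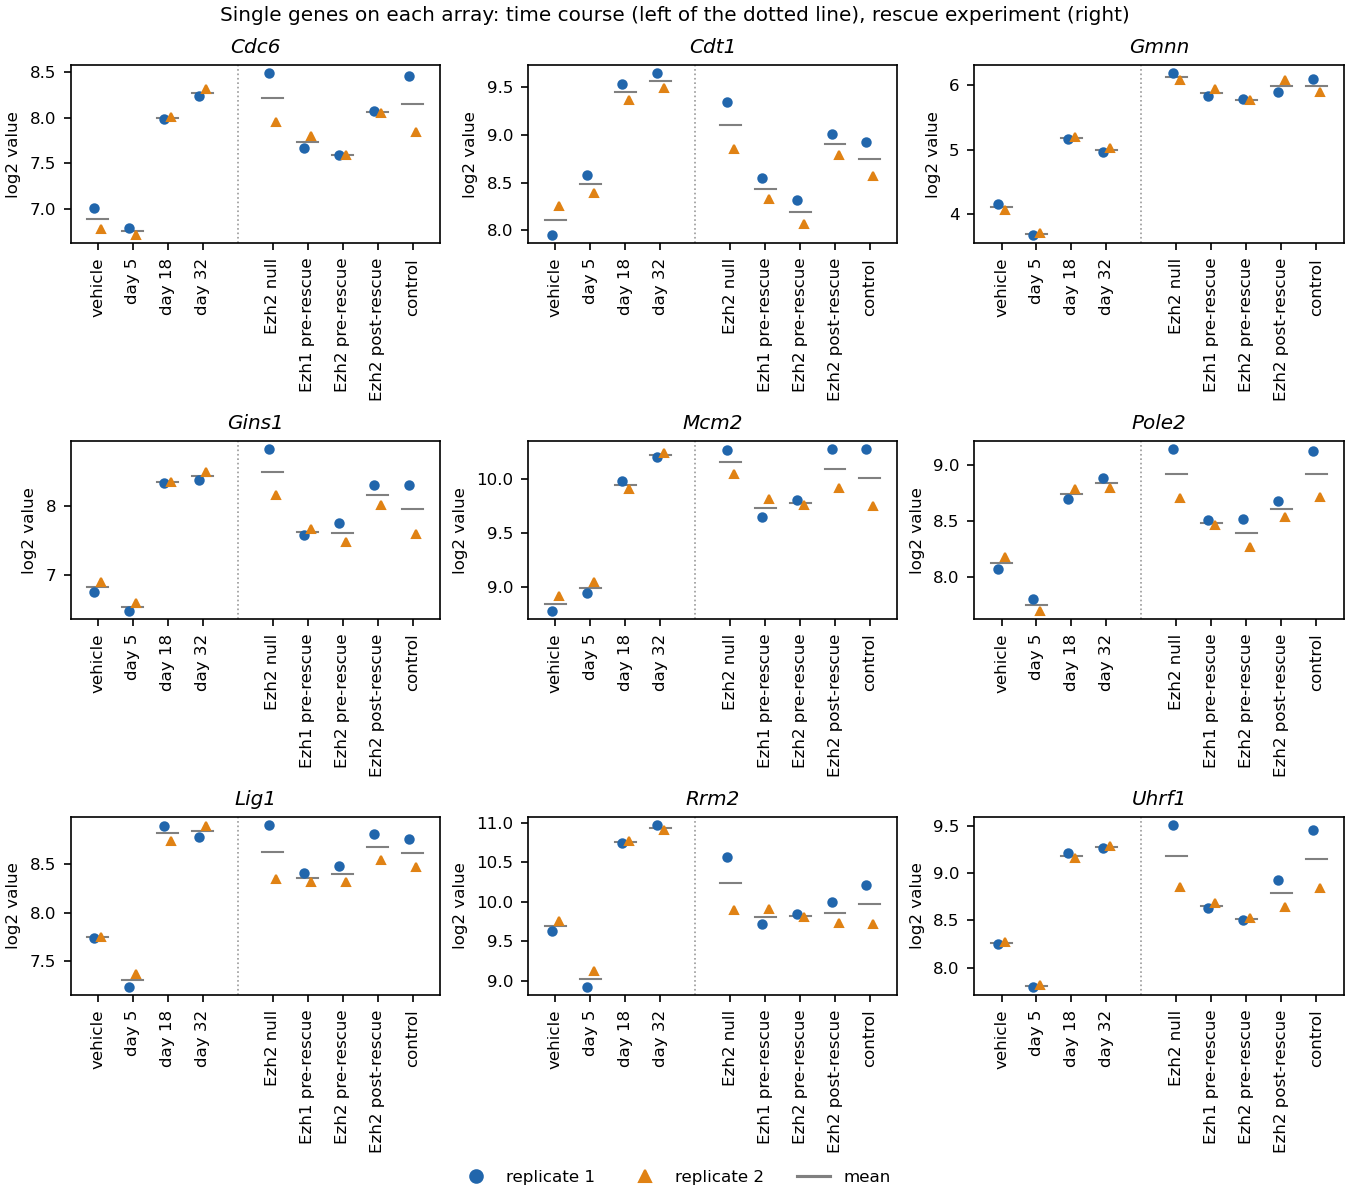
Log2 value of 9 replication genes (vertical axes) on each array of the time course, left of each dotted line, and of the rescue experiment, right of it, with circles for replicate 1, triangles for replicate 2 and bars for the mean of the 2 arrays. Gmnn, Gins1, Pole2, Lig1, Rrm2 and Uhrf1 dip at day 5, and all 9 genes are above vehicle at day 18 and day 32. Replicate 1 lies above replicate 2 in control and Ezh2 null cells for all 9. Heights do not compare across a dotted line because the experiments were normalized separately.

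The rescue experiment gave a second comparison of cells without and with Ezh2. None of the 36 was called in Ezh2 null against control cells, where 1.20% of all genes were higher and 0.755% lower. The changes lay between -0.15 and 0.53 with a median of 0.08 (all genes -0.03), and before adjustment 2 members were higher and 0 lower at p under 0.05, against 6.80% of all genes higher and 8.66% lower. Gins1 had the largest change, with 8.82 and 8.15 in Ezh2 null cells and 8.30 and 7.60 in control cells (0.53 ± 0.18, adjusted p = 0.22). Cdt1 read 9.34 and 8.86 in Ezh2 null cells, against 8.92 and 8.57 in control cells (0.36 ± 0.09, adjusted p = 0.11), and Mcm10 9.21 and 8.76 in Ezh2 null cells, against 9.04 and 8.37 in control cells (0.28 ± 0.14). In each of these 3 genes the replicate 2 array of the Ezh2 null cells read below the replicate 1 array of the control cells, and the groups overlapped.

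At the other end, Rpa2 read 8.60 and 8.11 in Ezh2 null cells, against 8.65 and 8.36 in control cells (-0.15 ± 0.11), Tk1 9.92 and 9.38 in Ezh2 null cells, against 10.14 and 9.43 in control cells (-0.13 ± 0.20), and Pola2 10.27 and 9.96 in Ezh2 null cells, against 10.34 and 10.14 in control cells (-0.13 ± 0.10). Mcm2 read 10.27 and 10.05 in Ezh2 null cells, against 10.27 and 9.75 in control cells. In these genes the replicates of a group differed by more than the group means. With the mean of its probe sets the Tk1 change was -0.06. Cdkn1a was called higher in Ezh2 null cells (1.15, adjusted p = 0.021), and Cdk6 changed by 2.14 without passing (adjusted p = 0.059).

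Replicate 1 read above replicate 2 for 35 of 36 members in Ezh2 null cells (median gap 0.49), 12 in Ezh1 pre-rescue cells (-0.06), 30 in Ezh2 pre-rescue cells (0.08), 34 in Ezh2 post-rescue cells (0.22) and 34 in control cells (0.40). Over all genes the median gap of each group stayed between -0.02 and 0.02. Mitosis genes had a like gap, with replicate 1 above replicate 2 for all 27 in Ezh2 null (median 0.63), Ezh2 post-rescue (0.30) and control cells (0.42), and so had the 44 further replication genes, with medians of 0.26 in Ezh2 null, 0.18 in Ezh2 post-rescue and 0.22 in control cells. For the steady genes the median stayed between -0.02 and 0.06 in the 5 groups. Averaged over the 5 groups, the gap was positive for all 36 members, with a median of 0.25. Within replicate 1 the median member of Ezh2 null against control cells changed by 0.13, and within replicate 2 by 0.04. The part of this gap in the rescue results was not tested.

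The difference between Ezh2 null against control and day 32 against vehicle was tested in a fit of all 18 arrays. The change in Ezh2 null against control cells was smaller than that of day 32 against vehicle for 31 of 36 members, against 5.67% of all genes lower and 2.70% higher in this test, and it was larger for none (before adjustment at p under 0.05, 0 members and 8.0% of all genes). The median difference was -0.99, and on the probe sets used it ranged from -0.54 in Orc6 to -1.47 ± 0.27 in Tk1 (adjusted p = 0.0053). With the mean of all probe sets of a gene, the difference was -1.21 for Tk1 and -0.47 for Gmnn, which moves both ends of that range. Cdc6 differed by -1.32, Mcm2 by -1.23, Orc1 by -1.13, Cdt1 by -1.11, Gins1 by -1.07 and Gmnn by -0.75. Mcm6, Mcm7, Pola1, Pcna and Rfc3 did not pass. This fit had no batch term, and with the replicate block Pola1 (adjusted p = 0.041) and Pcna (0.037) passed and the count was 33. It also took a common spread for all groups. The median gap of replicates 1 and 2 over the members was -0.11 with vehicle and -0.01 at day 32. In control cells it was 0.40 and in Ezh2 null cells 0.49. With such unequal spreads the standard errors can be too small and the count too high, and a fit with separate spreads was not run. The calls of Gins1 (adjusted p = 0.078 and 0.065), Pole2 (0.079 and 0.084) and Uhrf1 (0.060 and 0.064) were lost under quantile normalization and median centring, and that of Rrm2 under median centring (0.061). Without vehicle replicate 1 the count was 11, without control replicate 1 it was 14, without day 32 replicate 1 it was 16, and without day 32 replicate 2 or Ezh2 null replicate 2 it was 17, whereas it was 36 without Ezh2 null replicate 1. The experiments also differ in their controls, in the time since treatment, which the labels give for 1 of them, and in their normalization, and these cannot be told apart from the difference. Across the 36 members the changes of the 2 experiments, which share no array, correlated at Pearson's r of 0.54 and Spearman's rho of 0.49, and genes are not independent replicates.

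**Figure D4:**
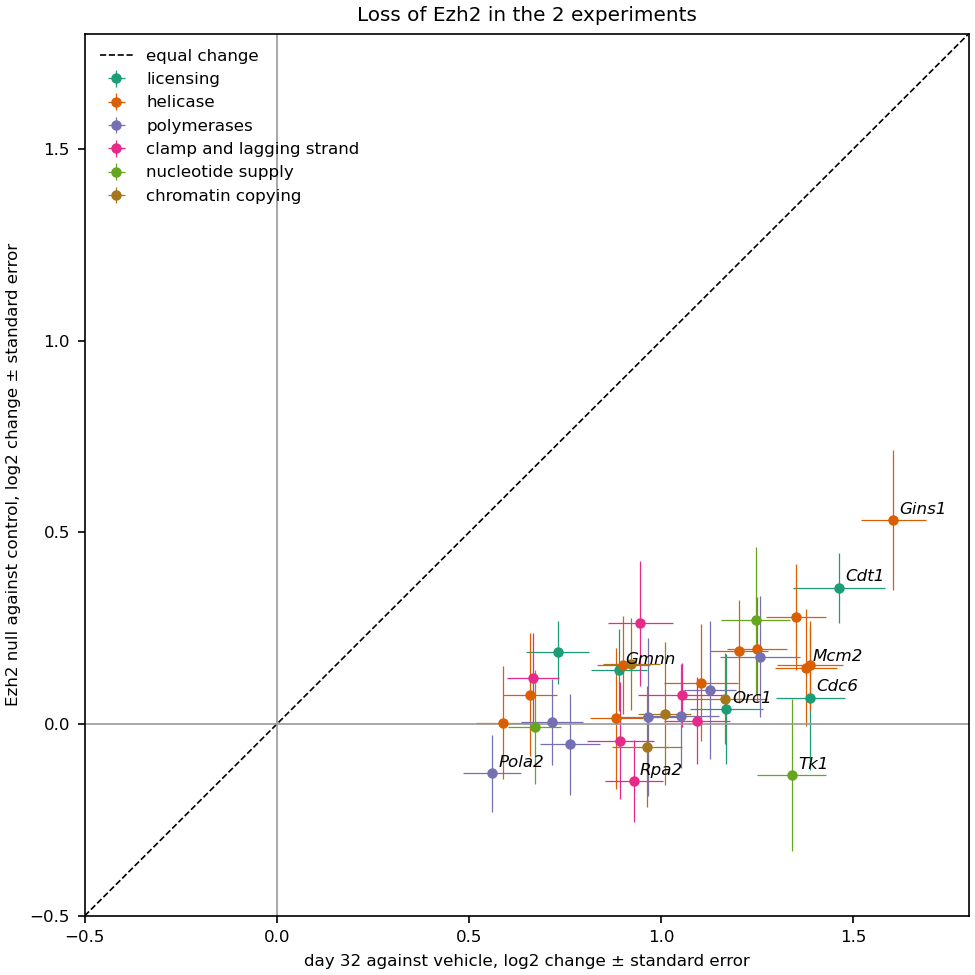
Log2 change of each replication gene (points, coloured by role group, ± standard error) at day 32 against vehicle (horizontal axis) and in Ezh2 null against control cells (vertical axis), with a dashed line of equal change. All 36 points lie below the line, between 0.56 and 1.60 on the horizontal and between -0.15 and 0.53 on the vertical axis.

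With Ezh1 or Ezh2 supplied before deletion, the replication genes read lower than in control cells without any of them passing the test. In Ezh1 pre-rescue cells all 36 changes were negative, with a median of -0.32 and a range of -0.89 to -0.06, where 0.0106% of all genes were called higher and 0% lower. In Ezh2 pre-rescue cells all 36 were again negative, with a median of -0.38 and a range of -0.81 to -0.10, and 0% of all genes were called in either direction. Before adjustment at p under 0.05, 15 members were lower with Ezh1 and 21 with Ezh2, against 6.40% of all genes with Ezh1 and 6.47% with Ezh2, and none was higher, against 3.36% and 3.78%. For 29 of 36 members both arrays of Ezh1 pre-rescue cells lay below both control arrays, against 20.4% of all genes, and for 29 in Ezh2 pre-rescue cells, against 20.1%. These comparisons share the control arrays. Within replicate 1 the median change was -0.59 with Ezh1 and -0.55 with Ezh2, and within replicate 2 it was -0.11 with Ezh1 and -0.19 with Ezh2. Without control replicate 2, 3 members passed in each comparison.

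Orc1 and Rpa2 had the largest of these changes. Orc1 read 6.5 and 6.41 in Ezh1 pre-rescue, 6.64 and 6.42 with Ezh2 supplied before deletion, against 7.60 and 7.09 in control cells (-0.89 ± 0.14 with Ezh1, -0.81 ± 0.14 with Ezh2, adjusted p = 0.16 and 0.23). Rpa2 read 7.76 and 7.68 in Ezh1 pre-rescue, 7.80 and 7.65 with Ezh2 supplied before deletion, against 8.65 and 8.36 in control cells, a change of -0.78 ± 0.11 in both. In these genes the 4 pre-rescue arrays lay below both control arrays. Rrm2 changed by -0.16 with Ezh1 and -0.15 with Ezh2, with 9.71 and 9.91 in Ezh1 pre-rescue, 9.84 and 9.80 with Ezh2 supplied before deletion, against 10.22 and 9.72 in control cells, so that the groups overlapped.

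Against Ezh2 null cells, 5 members were lower in Ezh1 pre-rescue cells (1.44% of all genes were lower) and 10 in Ezh2 pre-rescue cells (4.00% of all genes). None was higher, with Ezh1 (0.861% of all genes) or with Ezh2 (3.15%), and before adjustment at p under 0.05 0 were higher in both (9.22% of all genes with Ezh1, 11.5% with Ezh2), while 25 were lower with Ezh1 (10.9% of all genes) and 26 with Ezh2 (12.2%). The median changes were -0.43 with Ezh1 and -0.45 with Ezh2. Orc1, Cdt1, Mcm10, Fen1 and Rpa2 were called in both, and Gins1, Gins3, Pole2, Rfc3 and Chaf1a in Ezh2 pre-rescue cells alone. With Ezh1, the calls of Cdt1 (adjusted p = 0.077), Mcm10 (0.060) and Rpa2 (0.064) were lost without the replicate block, that of Rpa2 also under quantile normalization (0.055), and that of Fen1 with the mean of its probe sets (0.057). With Ezh2, those of Gins1, Gins3, Pole2 and Chaf1a were lost without the block and under quantile normalization, and those of Gins3, Pole2 and Chaf1a under median centring. Whether the 2 pre-rescues differ was not tested. Cdt1 read 8.55 and 8.32 in Ezh1 pre-rescue cells (-0.66 ± 0.09, adjusted p = 0.019), 8.31 and 8.06 with Ezh2 (-0.91 ± 0.09, adjusted p = 0.0046), and 9.34 and 8.86 in Ezh2 null cells. Mcm10 read 8.15 and 8.08 in Ezh1 pre-rescue cells, 8.18 and 7.95 with Ezh2, against 9.21 and 8.76 in Ezh2 null cells (-0.86 and -0.92, both ± 0.14). Neither gene had overlapping groups. Both arrays lay below both Ezh2 null arrays for 30 members with Ezh1 (22.2% of all genes) and 32 with Ezh2 (23%).

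These counts depended on single arrays and on the batch term. Without the replicate block they were 2 for Ezh1 and 6 for Ezh2 pre-rescue. The Ezh1 count was 0 without either of its own arrays and 3 without either Ezh2 null array. The Ezh2 count was 0 without either of its own arrays, 5 without Ezh2 null replicate 1 and 3 without Ezh2 null replicate 2. Arrays of groups outside the comparison enter through the shared spread and batch term: the counts were 11 for Ezh1 and 17 for Ezh2 without either control array, 0 for Ezh1 and 3 for Ezh2 without either Ezh2 post-rescue array, and 2 for Ezh1 without either Ezh2 pre-rescue array. Within replicate 1 the median change was -0.71 with Ezh1 and -0.66 with Ezh2, and within replicate 2 it was -0.18 with Ezh1 and -0.27 with Ezh2.

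When Flag-Ezh2 was supplied after deletion, no member was called against control cells, where 0.510% of all genes were higher and 0.197% lower, or against Ezh2 null cells, where 0.191% were higher and 0.409% lower. The changes against control cells had a median of -0.05 and lay between -0.37 and 0.20, with 0 members higher and 4 lower before adjustment at p under 0.05, against 4.50% of all genes higher and 5.01% lower. Against Ezh2 null cells the median was -0.14, with 0 members higher and 5 lower before adjustment, against 7.17% of all genes higher and 6.60% lower. Within replicate 1 the medians were -0.14 against control and -0.29 against Ezh2 null cells, and within replicate 2 they were 0.01 against control and -0.01 against Ezh2 null cells. Gins1 had the largest positive change against control cells, with 8.30 and 8.01 in Ezh2 post-rescue cells and 8.30 and 7.60 in control cells (0.20 ± 0.18). Cdt1 (0.15) and Dnmt1 (0.13) followed. Chaf1a read 7.44 and 7.19 in Ezh2 post-rescue cells, against 7.88 and 7.49 in control cells (-0.37 ± 0.12, adjusted p = 0.32), Uhrf1 8.93 and 8.64 in Ezh2 post-rescue cells, against 9.46 and 8.84 in control cells (-0.37 ± 0.19), and Orc1 7.09 and 6.94 in Ezh2 post-rescue cells, against 7.60 and 7.09 in control cells (-0.33 ± 0.14). In Chaf1a both post-rescue arrays lay below both control arrays, as for 5 of 36 members and 20.8% of all genes. For 0 members both lay above, against 17.1% of all genes. The Uhrf1 groups overlapped. The introduced genes themselves were high: Ezh2 read 12.26 and 11.84 in Ezh2 pre-rescue, 12.55 and 12.12 in Ezh2 post-rescue, 10.46 and 10.48 in Ezh2 null, against 10.36 and 10.56 in control cells, and Ezh1 read 11.68 and 11.85 in Ezh1 pre-rescue and 9.50 and 9.82 in control cells. The Ezh2 probe set did not separate Ezh2 null from control cells (0.01, adjusted p = 0.99).

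**Figure D5:**
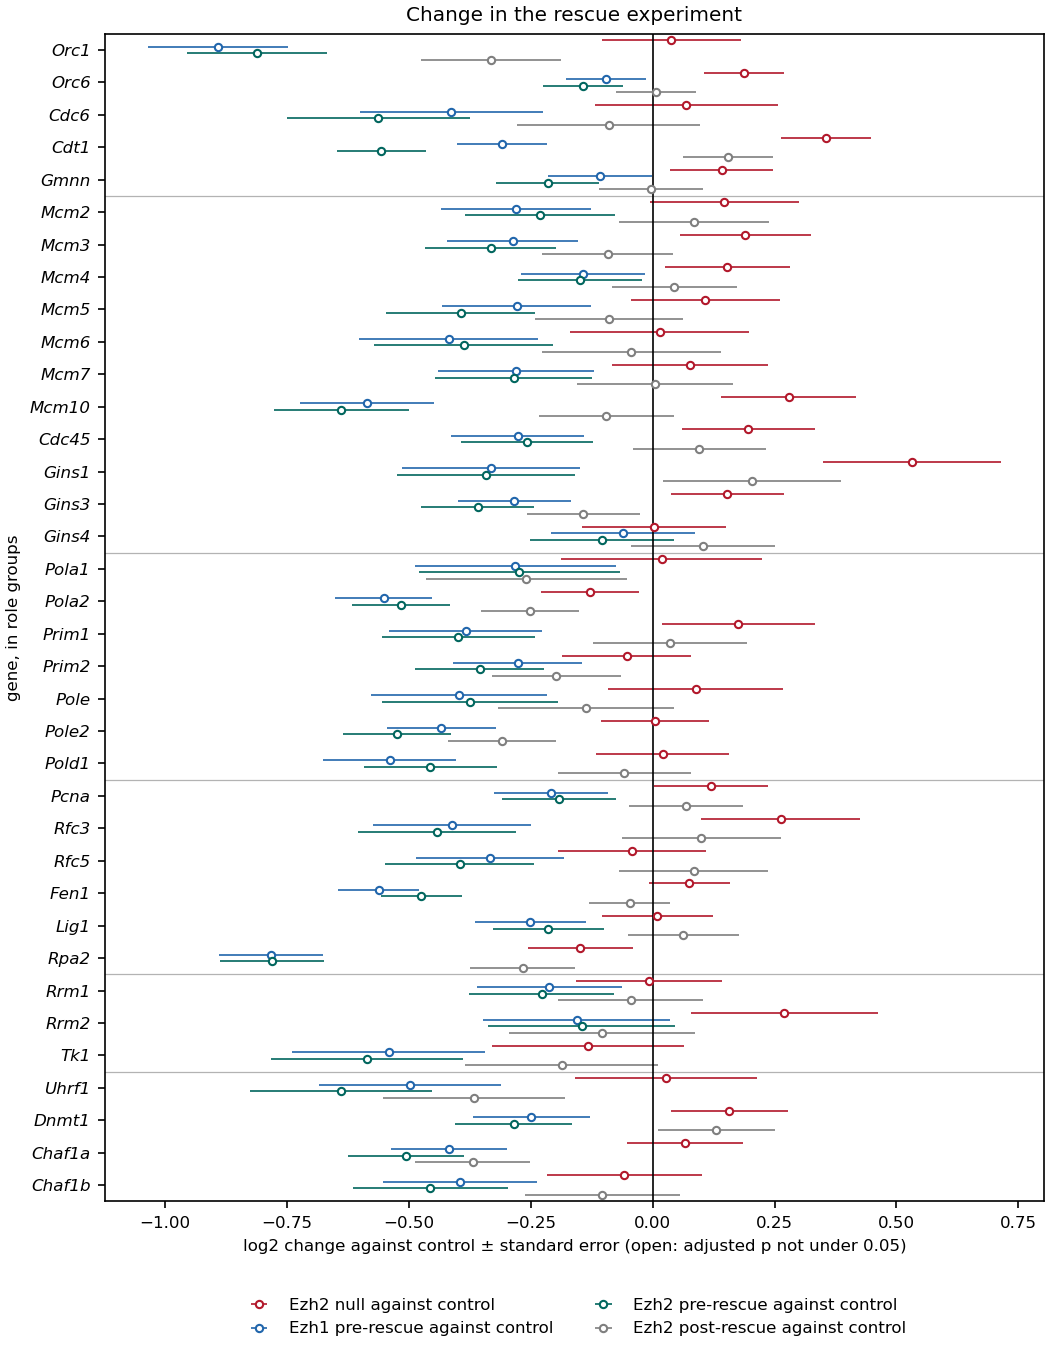
Log2 change of each replication gene in Ezh2 null, Ezh1 pre-rescue, Ezh2 pre-rescue and Ezh2 post-rescue cells against control cells (horizontal axis, limma estimate ± standard error), genes in role groups on the vertical axis, open points because no adjusted p was under 0.05. All Ezh1 and Ezh2 pre-rescue points lie below 0, and the Ezh2 null points lie between -0.15 and 0.53.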

How the data were processed

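RNA of C2 fibroblasts was measured on 18 arrays in 9 groups of 2. The authors normalized the scanner signals with RMA (oligo) and deposited log2 values, and their processing notes also name limma. Per the methods, a linear model removed a replicate batch in the rescue experiment. The deposited values still showed a mean gap between replicates 1 and 2 over these 10 arrays (median 0.25 for the members), so whether they carry that correction is not settled here. Of 28440 probe sets, 21217 had 1 gene symbol, 1881 several and 5342 none. For each of 18820 genes the brightest probe set, by its mean over 18 arrays, was used, and 18790 of them matched RefSeq by gene identifier.

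Each comparison was a two-sided limma fit (limma 3.58.1, R 4.3.3; lmFit and eBayes, Benjamini-Hochberg over 18820 genes), on the time course arrays (no block) or the rescue arrays (replicate number as a block, after the stated batch). The methods' rank products were not run here. The fit of all 18 arrays had a mean for each group, with no batch term, and each group lies within 1 experiment. For each gene it took a common spread over both experiments. Same-numbered arrays of the time course did not deviate together (r = -0.07 to 0.05 over 6 pairs of groups). In the rescue experiment, where the block was used, r ran from -0.43 to 0.54 over 10 pairs of groups, 6 of them negative. The study describes its time course and pre-rescue expression analyses as made on biological replicates, and its methods call all arrays duplicates. How the cultures were kept apart is not given in the sources used here, and p-values reflect only how far these arrays differ. The script was tested on simulated data. The number of arrays, and not depth, limits the precision.

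Values on every array were given for Mcm2, Mcm5, Cdc6, Cdt1, Gmnn, Pcna, Pola1, Rrm2, Uhrf1 and Dnmt1, for the member of each role group with the largest change at day 5 and at day 32, and for the 3 largest rises and falls in Ezh2 null and Ezh2 post-rescue against control. Fen1, Gins3, Rrm1, Mcm6, Mcm7, Gins4, Rfc3, Orc6 and Chaf1b were named after their values were seen. Of each further list, up to 4 genes with the smallest adjusted p at day 5 or day 32 were named, and Pold4, Rbl2 and the day 32 fall of Ccnd1 were added after their values were seen. The members and lists were chosen with earlier results of these data known.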

Additional observations from a re-analysis of the deposited data

Results flagged for a closer look

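The change of the replication genes in Ezh2 null against control cells differed from their change at day 32 against vehicle, by the test of the difference itself in a fit of all 18 arrays (limma, Benjamini-Hochberg adjusted p under 0.05), for 31 of 36 members. As the log2 change in Ezh2 null against control minus the log2 change at day 32 against vehicle, the difference was -1.47 for Tk1, -1.32 for Cdc6, -1.23 for Mcm2, -1.13 for Orc1, -1.11 for Cdt1, -1.10 for Chaf1a, -1.08 for Lig1, Prim1 and Rpa2, -1.07 for Mcm10 and Gins1, -0.99 for Mcm5, -0.98 for Uhrf1 and Rrm2, -0.77 for Dnmt1, -0.75 for Gmnn, -0.71 for Pole2 and -0.69 for Pola2. With the mean of all probe sets of a gene it was -1.21 for Tk1 and -0.47 for Gmnn. The fit took a common spread for all groups, although replicates lay further apart in control and Ezh2 null cells. The count of 31 rests on that assumption. Groups of 2 arrays are too small for a test of single outlying arrays.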

How the results depend on the processing

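The rises of all 36 members at day 18 and day 32 against vehicle and at day 18 against day 5 were kept under quantile normalization, median centring, a filter on the dimmest 30% of genes, the mean of all probe sets, an intensity trend, a replicate block and without any single array. With 2 arrays a group, the other counts were less stable. Median centring moved the median of all genes to -0.15 at day 5, -0.18 at day 18 and -0.14 at day 32, and that of the members to -0.24, 0.72 and 0.91. Members higher at day 5 numbered 3 instead of 0 with the filter and with the trend (Cdt1, Mcm10 and Pola2 in both), and members lower at day 5 numbered 18 instead of 10 under median centring. Members higher at day 32 against day 18 numbered 3 under median centring and with the filter and 6 with the trend, instead of 1. In the rescue experiment, dropping the replicate block left 2 members lower in Ezh1 pre-rescue (5 with it) and 6 in Ezh2 pre-rescue (10 with it) against Ezh2 null cells. Adding the replicate block to the time course ended 1 call of a named gene, that of Dnmt1 at day 5 (-0.25, adjusted p = 0.071), and moved no count of calls by over 1.5 times. In the fit of all 18 arrays the replicate block raised the count of members that differed to 33, instead of 31. Same-numbered arrays of the time course share only a number. No setting turned the direction of a call. Without 1 array, the count of members ranged from 0 to 2 (higher) and 6 to 8 (lower) at day 5, 0 to 1 at day 32 against day 18, 0 to 3 lower in Ezh1 pre-rescue and 0 to 3 in Ezh2 pre-rescue against control, 0 to 11 in Ezh1 pre-rescue and 0 to 17 in Ezh2 pre-rescue against Ezh2 null, and 11 to 36 for the difference between the experiments. Arrays of replicate 1 only and replicate 2 only were compared after the data were seen. Leaving out an array assumes that the lone array varies like the others.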
